A study of Rattus norvegicus with 22 samples.

Results

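The genes described here are 40 interferon-stimulated genes in the ventral cervical spinal cord of adult rats, followed across removal of the gonads in both sexes. They were taken from the 32883 gene rows of the count table by the gene symbol in the row name, and all 40 were present, with 0 absent. Interferons are secreted proteins of antiviral defence that bind receptors coupled to JAK kinases. Type I and type III interferons activate a transcription factor complex that contains IRF9 and binds the interferon-stimulated response element, and interferon gamma acts mainly at the gamma-activated site. The genes switched on in this way encode sensors of foreign nucleic acid, proteins that block viral entry, replication or release, and regulators that sustain or stop the response. In uninfected nervous tissue a low tonic level of this programme is known in microglia, astrocytes, endothelium and neurons.

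RNA was sequenced from 22 young-adult Sprague-Dawley rats, aged 3 to 4 months, with 1 library per rat. The groups were 5 gonadally intact males (rats 1, 2, 3, 5 and 6), 5 castrated males (GDX, rats 1, 2, 4, 5 and 6), 6 ovary-intact females and 6 ovariectomized females (OVX, rats 1 to 6 in each female group). The tissue was the ventral side of spinal segments C3 to C6, taken after saline perfusion, and it was collected 2 weeks after surgery in GDX and OVX rats. The methods describe no sham surgery, so loss of gonadal hormones and the operation itself cannot be told apart.

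The libraries held between 12371756 and 17571887 counted reads, and counts of single members ranged from 0 to 2170 per library. Levels are given as CPM, the count divided by the TMM-scaled library total in units of 1e6 reads, a scale that allows comparison of 1 gene between rats but not of different genes, since gene length is not taken into account. By the average fragment size in the study's methods the libraries fall into a shorter-fragment and a longer-fragment class. All GDX and OVX libraries were of the shorter class, as were those of intact males 2 and 5 and intact females 1 and 4, while the other 7 intact rats had longer-fragment libraries. Motor neuron markers summed to 3950 to 7040 CPM per library and dorsal horn markers to 40.1 to 82.6 CPM. These sums come from different genes and do not measure how much dorsal tissue the samples held. In bulk tissue of this kind, fewer cells of a type and less RNA per cell cannot be told apart.

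Promoters of the members were examined first, for the elements through which interferons act. RefSeq promoter windows of the build GRCr8, running from 250 bases before to 50 bases after each gene's start, matched 32 of the 40 members by symbol. Mx2, Ddx58, Dhx58, Zbp1, Adar, Ifit2, Isg15 and Usp18 had no window. The core of the interferon-stimulated response element was searched as 2 copies of GAAA separated by any 2 bases, on either strand. It occurred in 20 of the 32 member windows (62.5%) and in 3.77% of all 27457 promoter windows of the same length. The gamma-activated site was searched as TTCNNNGAA on either strand, which can overlap the first motif, and it occurred in 11 of the 32 member windows (34.4%) and in 8.68% of all windows. Stretches around the first motif are shown for 7 members that were higher after OVX at an unadjusted p under 0.05, each 5′ to 3′ on the gene's strand and ending before the start, with the match in capitals; where matches overlap, the whole run is in capitals, and TTTC marks a match on the opposite strand.
Bst2 (chr16:18255043-18255132, minus strand): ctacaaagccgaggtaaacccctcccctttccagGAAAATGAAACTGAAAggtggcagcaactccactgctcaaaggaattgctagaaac
Lgals3bp (chr10:104127849-104127938, minus strand): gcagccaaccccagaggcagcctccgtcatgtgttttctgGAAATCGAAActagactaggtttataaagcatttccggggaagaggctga
Parp14 (chr11:78408018-78408107, plus strand): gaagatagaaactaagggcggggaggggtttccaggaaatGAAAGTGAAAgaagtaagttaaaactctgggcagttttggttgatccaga
Irf7 (chr1:205800043-205800132, minus strand): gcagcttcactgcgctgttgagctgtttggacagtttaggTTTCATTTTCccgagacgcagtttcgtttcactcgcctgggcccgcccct
Oas1a (chr12:41330391-41330465, plus strand): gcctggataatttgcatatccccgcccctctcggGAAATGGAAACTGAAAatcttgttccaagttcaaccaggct
Irgm (chr10:33742579-33742652, minus strand): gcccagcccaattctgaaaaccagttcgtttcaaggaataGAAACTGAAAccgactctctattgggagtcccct
Igtp (chr10:42874904-42874993, plus strand): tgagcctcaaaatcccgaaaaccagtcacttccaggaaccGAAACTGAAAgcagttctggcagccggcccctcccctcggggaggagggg
Bst2 and Oas1a held 2 overlapping matches, so that 3 copies of GAAA follow each other at the same spacing. A match is only a run of letters in a window, and no binding was measured.

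Interferon-stimulated genes stood higher after OVX across most of the list, although only Bst2 passed the test. Bst2 encodes tetherin, a membrane protein that holds budding virus particles at the cell surface, and its level rose 1.74-fold. The comparison of 6 OVX with 6 intact females used edgeR's quasi-likelihood test on 14910 genes with Benjamini-Hochberg adjustment, and a gene was called at an adjusted p under 0.1. Of the 40 members, 37 passed the filter on low counts, and of these 1 was called higher (0.0268% of all genes tested were) and 0 lower (0.00671%). At an unadjusted p under 0.05, 23 of the 37 were higher (62.2%), against 5.25% of all genes, and 0 were lower, against 4.92%. The median log2 fold change of the 37 was 0.34 and that of all genes 0.003, and 36 of the 37 lay above 0, with Psmb8 (-0.15, SE 0.26) as the exception. The members share the same 12 rats and move together within a rat, so these counts are not independent pieces of evidence.

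Among the direct antiviral effectors, 7 of the 12 members tested had an unadjusted p under 0.05 after OVX, and Bst2 (ENSRNOG00000059900) led. Its levels in intact females had a lowest value of 2.98, a median of 3.81 and a highest of 4.98 CPM, and in OVX females 5.77, 6.72 and 7.33 CPM. Every OVX rat lay above every intact female, and the log2 fold change was 0.80 (SE 0.13, adjusted p = 0.0852). Groups without overlap in this direction were found for 2 of the 37 members, Bst2 and Dhx58, and for 0.302% of all genes tested. The Bst2 call was lost when intact female 2, 4 or 6 or OVX female 1, 2, 3 or 6 was left out (adjusted p between 0.112 and 0.206), while the log2 fold change stayed between 0.74 and 0.90. In those fits 0 members were called, against 6 without intact female 1 and 2 without intact female 3, OVX female 4 or OVX female 5. Among shorter-fragment libraries alone, which leaves 2 intact females, it was 0.95 (SE 0.17, adjusted p = 0.121).

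Mx2, a dynamin-like GTPase that traps incoming viral components, ran from 10.5 over a median of 13.9 to 18.3 CPM in intact females and from 15.6 over 23.6 to 26.9 CPM in OVX females. A single OVX rat, number 5, lay within the range of the intact rats. The log2 fold change was 0.71 (SE 0.14), with an adjusted p of 0.115 that missed the threshold. With only shorter-fragment libraries it was 0.92 (SE 0.18, adjusted p = 0.149). Its relative Mx1 ranged from 0.467 to 5.12 CPM in intact females (median 2.46) and from 2.73 to 7.31 CPM after OVX (median 4.64), so that the groups overlapped widely (log2 fold change 0.87, SE 0.35, adjusted p = 0.398).

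The oligoadenylate synthetase Oas1a, which makes the messenger that activates RNase L, had 0.668 to 2.43 CPM in intact females (median 1.16) and 1.18 to 3.99 CPM in OVX females (median 2.70). These are 10 to 69 reads per library, and the log2 fold change of 0.95 had an SE of 0.31. Oasl2, of the same family, gave 0.61 (SE 0.22). Rsad2, the radical-SAM enzyme viperin, gave 1.01 (SE 0.44) and Ifit2, which binds foreign RNA, 0.29 (SE 0.12). The adjusted p-values of these genes lay between 0.307 and 0.456. The other 5 tested effectors, Ifit3, Ifitm2, Ifitm3, Samhd1 and Cmpk2, had log2 fold changes from 0.06 (Samhd1) to 0.32 (Ifit3). Ifitm2 and Ifitm3, the Oas genes and the Mx genes are paralogs, and the counting settings for shared reads are not given in the sources used here, so the split of reads within each family is uncertain.

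Of the sensors, Dhx58 stood out in females. It encodes LGP2, a regulator of the RNA helicases RIG-I and MDA5. In intact females it ran from 2.26 over a median of 3.03 to 3.77 CPM and in OVX females from 4.09 over 4.73 to 5.55 CPM. The ranges did not touch, and the log2 fold change was 0.63 (SE 0.15, adjusted p = 0.16). Ddx58, which encodes RIG-I, had 4.24 to 6.92 CPM in intact females (median 5.31) and 6.01 to 8.26 CPM after OVX (median 7.22), and differed by 0.40 on the log2 scale (SE 0.13, adjusted p = 0.293). Eif2ak2, the RNA-activated kinase PKR, differed by 0.16 (SE 0.06, adjusted p = 0.408). The values of Ifih1, which encodes MDA5, and of the RNA editing enzyme Adar were 0.14 (SE 0.13) and 0.06 (SE 0.04).

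The transcription factors were split. Irf7, the master regulator of type I interferon production and itself induced by interferon, had 0.801 to 4.17 CPM in intact females (median 1.63) and 3.05 to 4.04 CPM in OVX females (median 3.54). The intact group spread widely, with rat 1 above all OVX rats and the other 5 below all of them. Its log2 fold change was 0.87 (SE 0.30, adjusted p = 0.317), and that of Irf9, a DNA-binding subunit of the complex at the response element, was 0.32 (SE 0.10, adjusted p = 0.269). Stat2 (0.11, SE 0.06) and Irf1 (0.10, SE 0.16) had smaller differences, which did not pass an unadjusted p of 0.05.

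In the ISG15 and ubiquitin group 5 of 7 members had an unadjusted p under 0.05. Dtx3l, an E3 ubiquitin ligase that acts with PARP9, ran from 4.27 over a median of 5.24 to 6.81 CPM in intact females and from 6.38 over 7.83 to 8.78 CPM in OVX females. The overlap came from intact rat 1 and OVX rat 2, and the log2 fold change was 0.54 (SE 0.12, adjusted p = 0.15). Parp14, a mono-ADP-ribosyltransferase, gave 0.40 (SE 0.11). Isg15, the ubiquitin-like modifier, gave 0.80 (SE 0.27), Usp18, the protease that removes it from proteins, 1.08 (SE 0.40), and Herc6, a HERC-family ligase, 0.47 (SE 0.21). Usp18 rested on few reads in intact females, with 4 in rat 5 and 43 in the rat with most. The adjusted p-values of these 4 ran from 0.247 to 0.471, and Parp9 (0.27, SE 0.14) and Trim25 (0.04, SE 0.12) had an unadjusted p above 0.05.

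All 3 interferon-inducible GTPases, which guard against pathogens in vacuoles, had an unadjusted p under 0.05 after OVX. Irgm gave a log2 fold change of 0.64 (SE 0.20), Igtp 0.42 (SE 0.13) and Gbp2 0.33 (SE 0.11), with adjusted p-values from 0.28 to 0.307. Lgals3bp, a secreted galectin-binding glycoprotein, had 8.30 to 13.2 CPM in intact females (median 10.5) and 12.3 to 17.6 CPM in OVX females (median 14.4). Only intact rat 3 reached into the OVX range, and the log2 fold change was 0.52 (SE 0.12, adjusted p = 0.15). Ifi27, a small membrane protein, gave 0.34 (SE 0.10) and Ifi35 also 0.34 (SE 0.16), while Ifi44 gave 0.24 (SE 0.18). The immunoproteasome subunits Psmb8 and Psmb9, which are induced mainly by interferon gamma, gave -0.15 (SE 0.26) and 0.22 (SE 0.18).

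**Figure D1:**
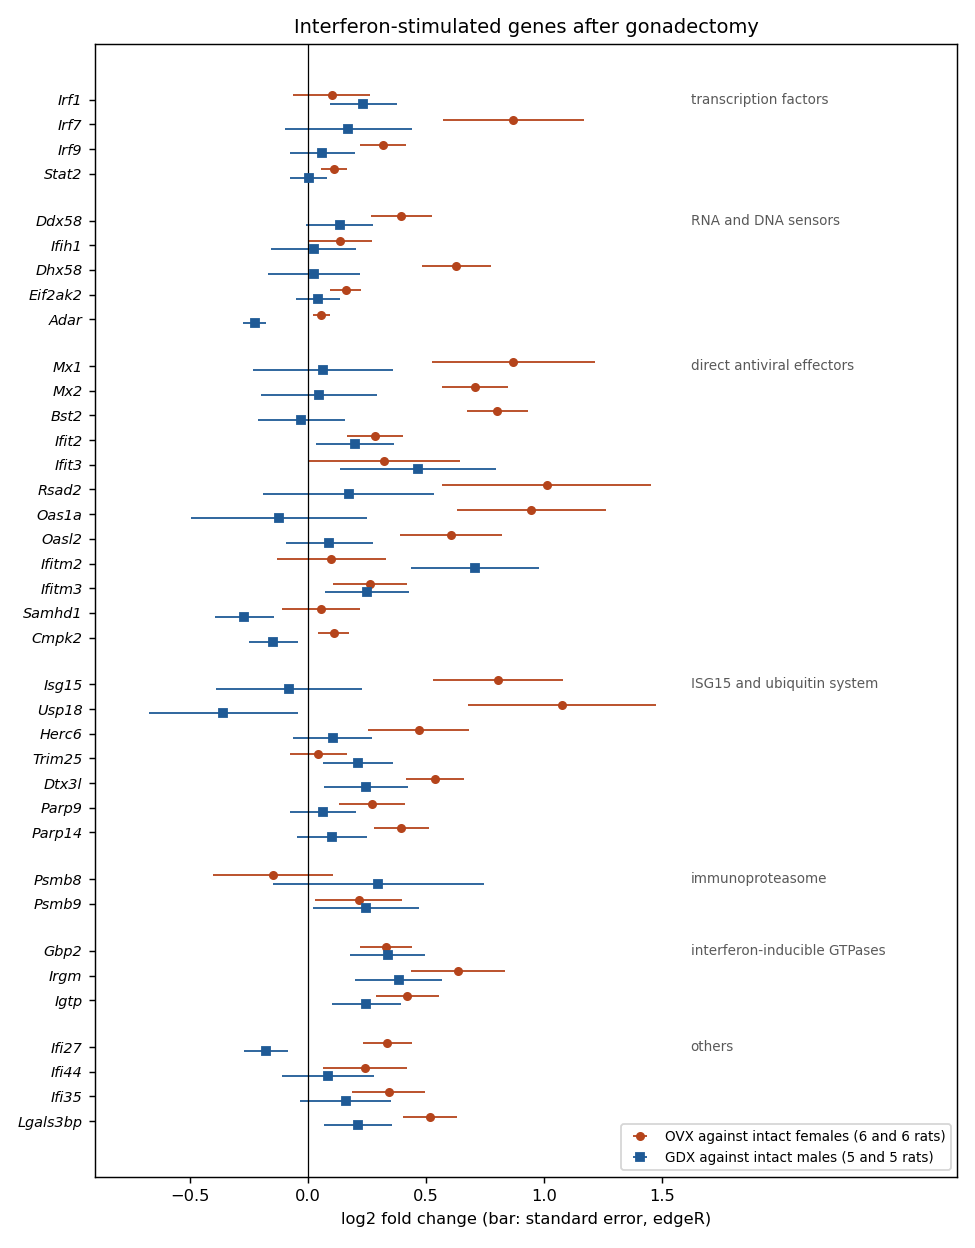
Log2 fold change of the 37 tested members, with its standard error as a bar, after OVX in females (circles) and after GDX in males (squares), ordered by role. After OVX 36 of 37 points lie to the right of 0, with a median of 0.34, and after GDX 29 of 37 do, with a median of 0.10.

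**Figure D2:**
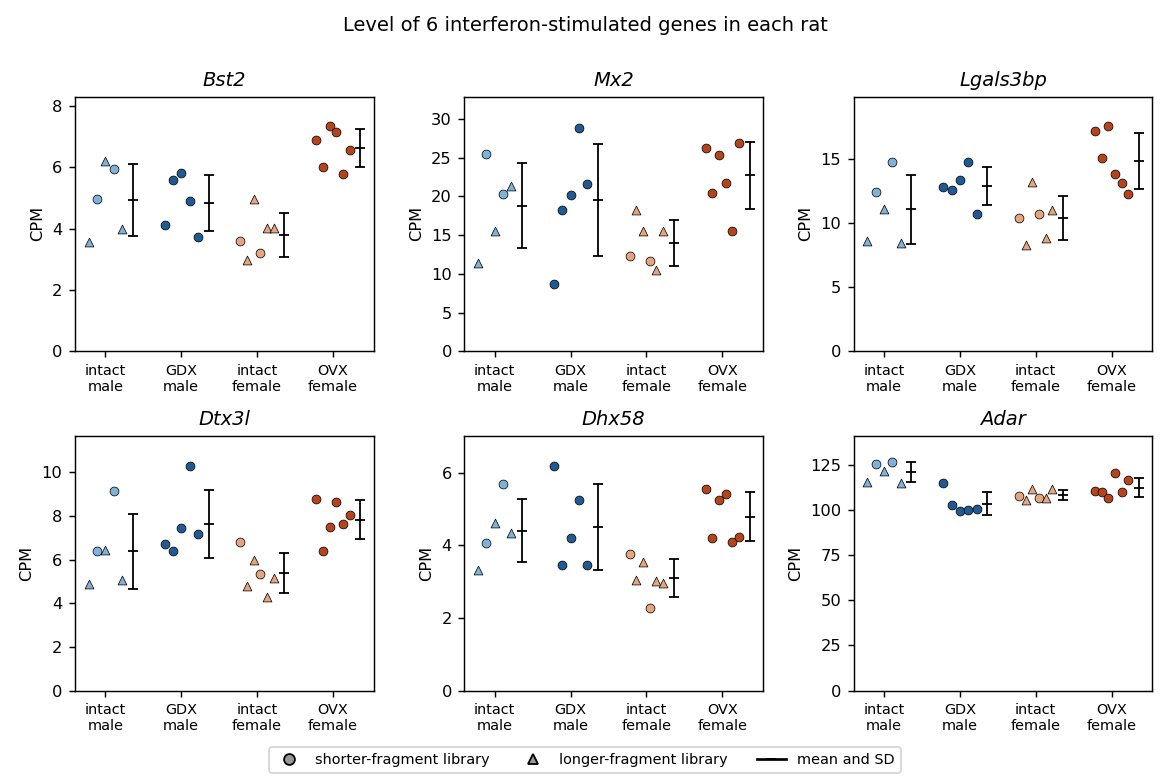
Level in CPM of Bst2, Mx2, Lgals3bp, Dtx3l, Dhx58 and Adar in each rat of the 4 groups, with the mean and standard deviation at the side of each group, circles for shorter-fragment and triangles for longer-fragment libraries. The OVX rats lie above all intact females for Bst2 and Dhx58, and the GDX rats lie at or below all intact males for Adar.

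Members whose windows held the response element core had a median log2 fold change of 0.40 after OVX (19 tested), and those without it 0.22 (11 tested). In males the medians were 0.17 and 0.07. These are descriptions, with no test, of members that share rats.

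The class of the library moved with part of the female result. Among the 11 intact rats, in a fit that also held sex, 0 of 37 members were called between longer- and shorter-fragment libraries, and 0.0066% of all genes were called lower in the longer class. At an unadjusted p under 0.05, 4 members were lower in longer-fragment libraries, where 3.91% of all genes were, namely Irf7 (-0.98, SE 0.31), Rsad2 (-1.18, SE 0.40), Mx1 (-0.80, SE 0.35) and Dtx3l (-0.39, SE 0.15). The median of the 37 was -0.19, with 33 below 0. With the class as a term the log2 fold changes after OVX of Irf7, Rsad2 and Mx1 shrank to 0.33, 0.47 and 0.40, and that of Dtx3l to 0.36. Those of Bst2 (0.96), Mx2 (0.93), Dhx58 (0.65), Lgals3bp (0.50) and Oas1a (1.05) stayed close to or above those without it. In that fit the median of the members was 0.37 and 36 of 37 lay above 0, but with the wider errors 10 rather than 23 members kept an unadjusted p under 0.05 and 0 were called. Since every OVX library was of the shorter class, its OVX values rest on intact females 1 and 4 alone. Their mean log2 CPM over the 40 members was 2.50 and 2.01, so the fit cannot separate the class from these 2 rats.

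**Figure D3:**
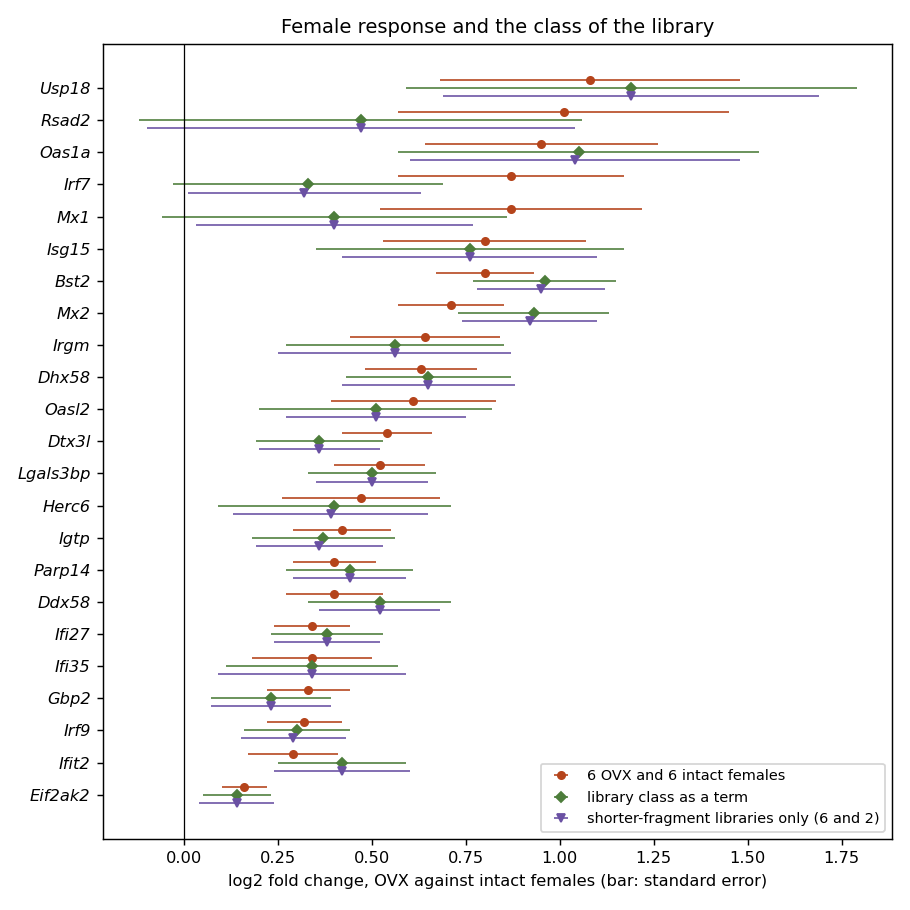
Log2 fold change after OVX, with its standard error, of the members named in females, in all 12 rats, with the library class as a term, and in shorter-fragment libraries alone (6 OVX and 2 intact females). Bst2 and Mx2 keep or exceed their values, and Rsad2, Irf7 and Mx1 drop to 0.47 or less. Both class settings set the OVX rats against the same 2 intact females.

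Markers of other cells moved with gonadectomy too. Endothelial markers, 11 of 12 listed genes being in the table, summed to 126 to 237 CPM in intact females and to 206 to 301 CPM in OVX females, and 2 of 11 were called higher (0.0268% of all genes were), with a median log2 fold change of 0.49. In males they summed to 131 to 182 CPM in intact and 196 to 258 CPM in GDX rats, and 9 of 11 were called higher (6.78% of all genes were), with the same median of 0.49. Microglial markers had medians of 0.11 after OVX (0 of 11 called) and 0.16 after GDX (1 of 11 called higher). The 6 border macrophage markers summed to 26.1 to 38.6 CPM in intact females and 29.3 to 41.4 CPM after OVX. They summed to 15.8 to 26.1 CPM in intact males and 31.1 to 44 CPM after GDX. After GDX 3 of the 5 tested were called higher (median 0.85), and after OVX 0 were (median 0.18). In intact rats 3 of 5 were called lower in males (median -0.57), where 2.56% of all genes were. Astrocyte markers had 2 of 6 called higher after GDX and 0 after OVX, with a median of 0.04 in each. After GDX 6.78% of all genes were called higher. Motor neuron markers were lower after OVX at an unadjusted p under 0.05 for 6 of 7 (4.92% of all genes were), with 0 called and a median log2 fold change of -0.37. They summed to 4330 to 6060 CPM in intact and 3960 to 5270 CPM in OVX females. After GDX 2 of the 7 were called lower, where 6.58% of all genes were (median -0.27, 4460 to 7040 CPM in intact and 3950 to 4740 CPM in GDX males). Averaged over the sexes 4 were called lower, where 8.41% of all genes were. All 7 were higher in longer-fragment libraries of intact rats at an unadjusted p under 0.05 (median 0.38), where 3.82% of all genes were, with 0 called. For dorsal horn markers the median log2 fold change after OVX was 0.34, with 5 of 5 tested above 0 and 0 called. At an unadjusted p under 0.05, 1 of them was higher (5.25% of all genes were). After GDX the median of 4 tested was -0.18, with 0 called and 1 lower at that p (12% of all genes were). In longer-fragment libraries of intact rats 1 of 5 was called lower, where 0.0066% of all genes were, with a median of -0.43. Meningeal and fibroblast markers were called higher after GDX for 10 of 10 tested (median 1.59, 84.2 to 220 CPM in intact and 204 to 618 CPM in GDX males). After OVX 0 of the 10 were called, with a median of 0.28 and sums of 159 to 498 CPM in intact and 304 to 528 CPM in OVX females. The 6 granulocyte markers summed to 0.803 to 2.03 CPM in intact females, 2.62 to 4.74 CPM in OVX females, 0.302 to 1.99 CPM in intact males and 1.59 to 15 CPM in GDX males, and erythroid markers to 5.12 to 30.6, 25.7 to 43.6, 8.84 to 21.4 and 17.3 to 91.1 CPM in the same order. After OVX 0 markers of either list were called. At an unadjusted p under 0.05 all 4 tested erythroid gene rows and the 1 tested granulocyte marker were higher there (5.25% of all genes were). After GDX 3 of 3 tested erythroid markers were called higher (6.78% of all genes were), and 0 granulocyte markers could be tested. Averaged over the sexes 4 of 4 erythroid gene rows and 3 of 3 granulocyte markers tested were called higher (7.56% of all genes were). T and NK cell markers summed to at most 1.11 CPM in any library and B cell markers to at most 1.22 CPM, too few for a test. No listed marker was at 0 in all 22 libraries, and the lists' part in the results on the members was not tested.

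After GDX 1 member was called lower, Adar, and 0 were called higher. The comparison of 5 GDX with 5 intact males covered 14931 genes, of which 6.78% were called higher and 6.58% lower. Of the 37 members 0% and 2.70% were called, counts too small to set the members apart from all genes. At an unadjusted p under 0.05, 1 member was higher (11.8% of all genes) and 2 were lower (12% of all genes). The median log2 fold change of the members was 0.10, against 0.002 for all genes, and 29 of 37 were above 0. With the class as a term the median was -0.12 and 10 of 37 were above 0. Every GDX library was of the shorter class, so the values of that fit rest on intact males 2 and 5 alone.

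Adar encodes the enzyme that converts adenosine to inosine in double-stranded RNA and thereby limits sensing of the cell's own RNA. Its levels in intact males 1, 2, 3, 5 and 6 were 116, 126, 122, 127 and 115 CPM, and those in GDX males 1, 2, 4, 5 and 6 were 115, 103, 99.4, 100 and 101 CPM. The groups did not overlap, which held for 1 of 37 members and for 3.94% of all genes in this direction, though GDX rat 1 stood close under the lowest intact rats. Adar fell by 0.23 on the log2 scale (SE 0.05, adjusted p = 0.0131), and it stayed called in all 10 fits that left out a rat (-0.27 to -0.21). Among shorter-fragment libraries alone it was also called (-0.29, SE 0.07, adjusted p = 0.0859). That fit kept only intact males 2 and 5, which had the highest levels of their group (126 and 127 CPM).

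Samhd1, which depletes the nucleotides needed for reverse transcription, had 5.96, 5.63, 5.74, 7.49 and 6.24 CPM in the intact males and 4.71, 5.02, 5.81, 5.04 and 5.22 CPM in the GDX males. GDX rat 4 overlapped the intact range, and the log2 fold change was -0.27 (SE 0.12, adjusted p = 0.204). Ifitm2, a membrane protein that blocks viral fusion, had 1.56, 1.33, 1.28, 1.18 and 0.919 CPM in the intact and 0.93, 2.43, 2.03, 2.70 and 2.15 CPM in the GDX males. All GDX rats but rat 1 lay above every intact rat, and the log2 fold change was 0.71 (SE 0.27, adjusted p = 0.125), on 14 to 42 reads per library.

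The genes that led in females did not differ detectably between the male groups. Bst2 had 3.55, 4.96, 6.20, 5.94 and 4.00 CPM in intact males and 4.12, 5.60, 5.81, 4.90 and 3.72 CPM in GDX males. The ranges coincided, and the log2 fold change was -0.03 (SE 0.18, adjusted p = 0.95). For Mx2 the intact males had 11.4, 25.5, 15.5, 20.3 and 21.4 CPM and the GDX males 8.70, 18.2, 20.2, 28.9 and 21.6 CPM. The GDX rats held both the lowest and the highest value, and the log2 fold change was 0.05 (SE 0.25, adjusted p = 0.933). A p that misses the threshold does not show that the groups were alike.

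In males 1 rat set much of the picture. Intact male 5 had the highest level of its group for 32 of the 40 members, and without it 10 rather than 1 member were higher at an unadjusted p under 0.05, 5 rather than 1 were called, and the median log2 fold change was 0.24. Its library was of the shorter class, like that of intact male 2. Without intact male 1, which was lowest for 23 members, the median was 0.01. Leaving out GDX rat 5, the highest of its group for 27 members, left 0 members higher at an unadjusted p under 0.05, and without GDX male 2, GDX male 6 or intact male 3 there were 2, while without GDX male 1 a second member was called.

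**Figure D4:**
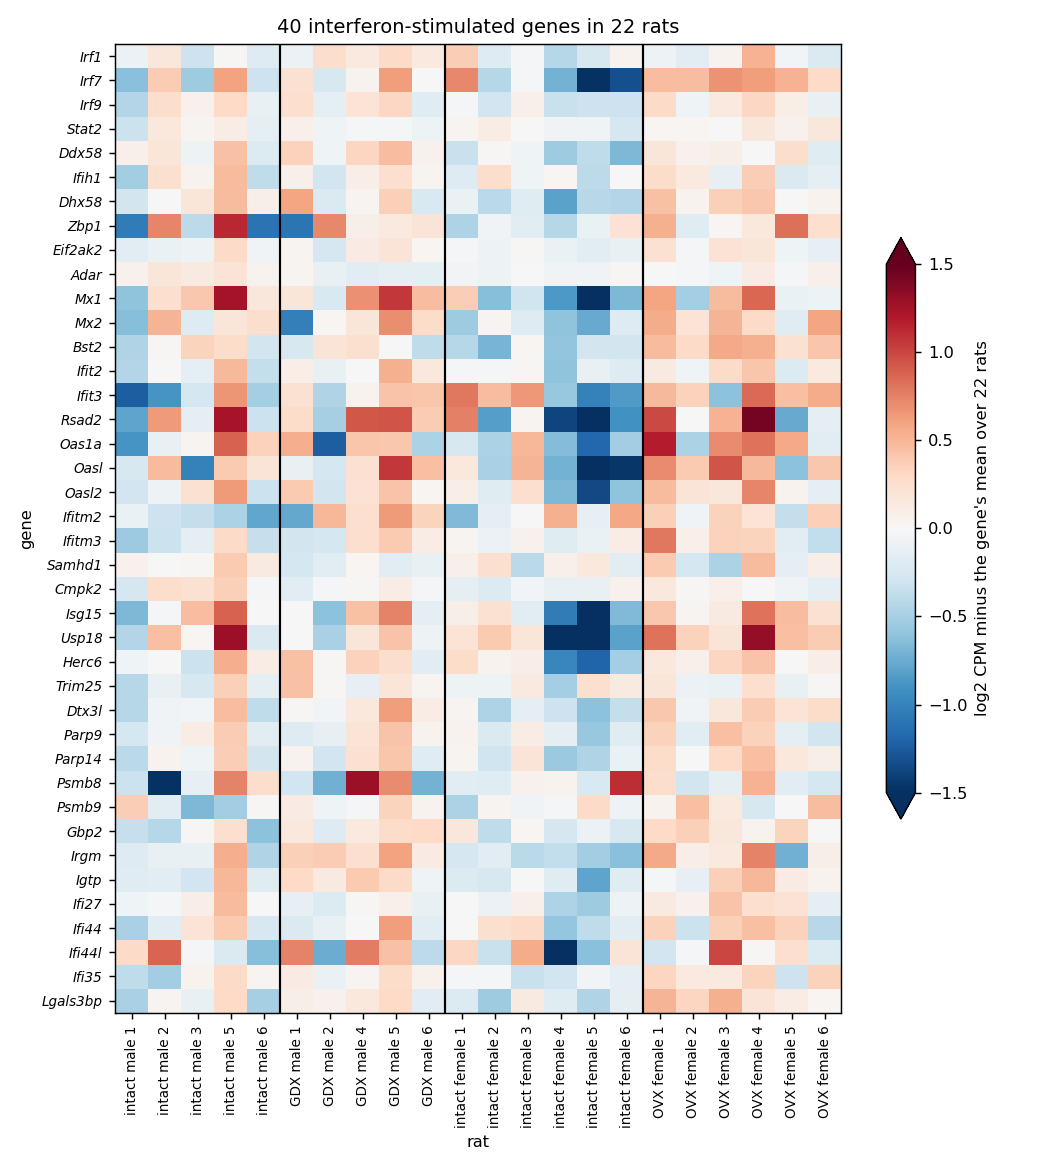
Log2 CPM of each of the 40 members in each rat relative to the gene's mean over 22 rats, in red where higher and blue where lower, with rats in columns by group. Intact male 5, GDX male 5 and OVX female 4 are red across most rows, and intact male 1 and intact females 4 and 5 are blue.

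The heat map of single rats shows that members tended to be high or low together within a rat. The mean log2 CPM over the 40 members was 2.25 ± 0.27 in intact females (SD, n = 6), 2.69 ± 0.18 in OVX females (n = 6), 2.47 ± 0.30 in intact males (n = 5) and 2.60 ± 0.22 in GDX males (n = 5). Intact females ran from 1.87 in rat 5 to 2.53 in rat 3, and OVX females from 2.53 in rats 2 and 5 to 2.93 in rat 4. The male groups ran from 2.14 to 2.94 when intact and from 2.34 to 2.90 after GDX, so that the span within intact males was wider than the distance between any 2 group means. Low means in intact females 4 and 5 went with very few reads of some members, such as 5 and 4 reads of Usp18.

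Whether the response differed between the sexes was tested directly, as the male minus the female log2 fold change over all 22 rats and 15562 genes, 39 members among them. Adar was the 1 member called, lower in males relative to females by 0.28 on the log2 scale (-0.28, SE 0.06, adjusted p = 0.0973), and 0.0257% of all genes were called in this direction. The female values behind it were 106 to 112 CPM in intact (median 108) and 107 to 121 CPM in OVX rats (median 111), which overlapped. The Adar call held in 9 of 22 fits that left out a rat; it was lost without GDX male 4, 5 or 6, intact male 2 or 5, intact female 3, 4, 5 or 6, or OVX female 2, 4, 5 or 6 (adjusted p between 0.119 and 0.214), and its value stayed between -0.32 and -0.26. It was also lost with the library class as a term (-0.28, SE 0.06, adjusted p = 0.115) and in shorter-fragment libraries alone (-0.35, SE 0.09, adjusted p = 0.393).

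At an unadjusted p under 0.05, 7 of the 39 members were lower in the male than in the female response, where 5.71% of all genes were, and 0 were higher, where 5.92% were. Beside Adar they were Bst2 (-0.83, SE 0.22, adjusted p = 0.153), Ifi27 (-0.51, SE 0.15, adjusted p = 0.177), Usp18 (-1.43, SE 0.57), Dhx58 (-0.60, SE 0.24), Mx2 (-0.66, SE 0.30) and the mitochondrial nucleotide kinase Cmpk2 (-0.25, SE 0.12). The last 4 had adjusted p-values of 0.31 to 0.418. The 7 became 3 without intact male 5 and 15 of 40 in shorter-fragment libraries alone. The latter fit had intact males 2 and 5 and intact females 1 and 4 as its only intact rats. The median over 39 members was -0.26, with 32 below 0. By the adjusted p, a difference between the sexes was not shown for single members other than Adar.

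Averaged over the sexes, with the same 22 rats, gonadectomy gave 8 of 39 members called higher (7.56% of 15562 genes were) and 1 lower (8.41% were). Lgals3bp rose by 0.36 on the log2 scale (SE 0.10, adjusted p = 0.0162), Irgm by 0.51 (SE 0.14, 0.0202), Dtx3l by 0.39 (SE 0.11, 0.0218), Bst2 by 0.38 (SE 0.11, 0.0256), Gbp2 by 0.33 (SE 0.10, 0.0284), Igtp by 0.33 (SE 0.10, 0.0399), Ddx58 by 0.26 (SE 0.10, 0.0798) and Dhx58 by 0.32 (SE 0.12, 0.0832). Adar fell by 0.09 (SE 0.03, 0.0574). An averaged call does not show a change in both sexes. In males the log2 fold change was -0.03 for Bst2, 0.03 for Dhx58, 0.13 for Ddx58, 0.21 for Lgals3bp and 0.25 for Dtx3l. Adar gave -0.23 in males and 0.06 in females. All 3 interferon-inducible GTPases were thus called, with male log2 fold changes of 0.34 (SE 0.16) for Gbp2, 0.38 (SE 0.18) for Irgm and 0.25 (SE 0.15) for Igtp. Gbp2 had 6.03, 5.70, 7.79, 9.16 and 4.99 CPM in intact males and 8.63, 6.70, 8.51, 9.37 and 9.46 CPM in GDX males, and 5.88 to 8.67 CPM in intact (median 6.86) and 7.65 to 9.92 CPM in OVX females (median 9.10). Irgm had 3.62, 3.85, 3.85, 6.13 and 3.02 CPM in intact and 5.38, 5.49, 5.00, 6.39 and 4.57 CPM in GDX males. Apart from intact male 5, every GDX rat was above every intact male for Irgm.

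At an unadjusted p under 0.05 the averaged comparison had 17 of 39 members higher, against 11.9% of all genes. The 9 not called were Irf7 (0.52, SE 0.22), Oasl (0.69, SE 0.32), Ifitm2 (0.40, SE 0.18), Mx2 (0.38, SE 0.15), Oasl2 (0.35, SE 0.16), Parp14 (0.25, SE 0.10), Ifi35 (0.25, SE 0.12), Ifit2 (0.24, SE 0.11) and Irf9 (0.19, SE 0.09). The 8 calls set gonadectomized rats, all with shorter-fragment libraries, against intact rats of both classes. With the class as a term 0 members were called, 2 were higher at an unadjusted p under 0.05 and the median fell from 0.27 to 0.13. Without intact male 5 there were 15 calls in all and 26 members higher at an unadjusted p under 0.05, without GDX male 5 there were 8 such members and without intact male 1 there were 11. Ddx58 kept its call only without GDX male 2 or 6, intact male 2 or 5, intact female 2 or 3 or OVX female 4 or 6, and Dhx58 only without GDX male 2, 4 or 6, intact male 3 or 5, intact female 1 or 3 or OVX female 2, 5 or 6. In their other fits the adjusted p reached 0.159 and 0.163. Adar lost its call without GDX male 4 or 5 or intact male 2 or 5 (adjusted p up to 0.122).

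**Figure D5:**
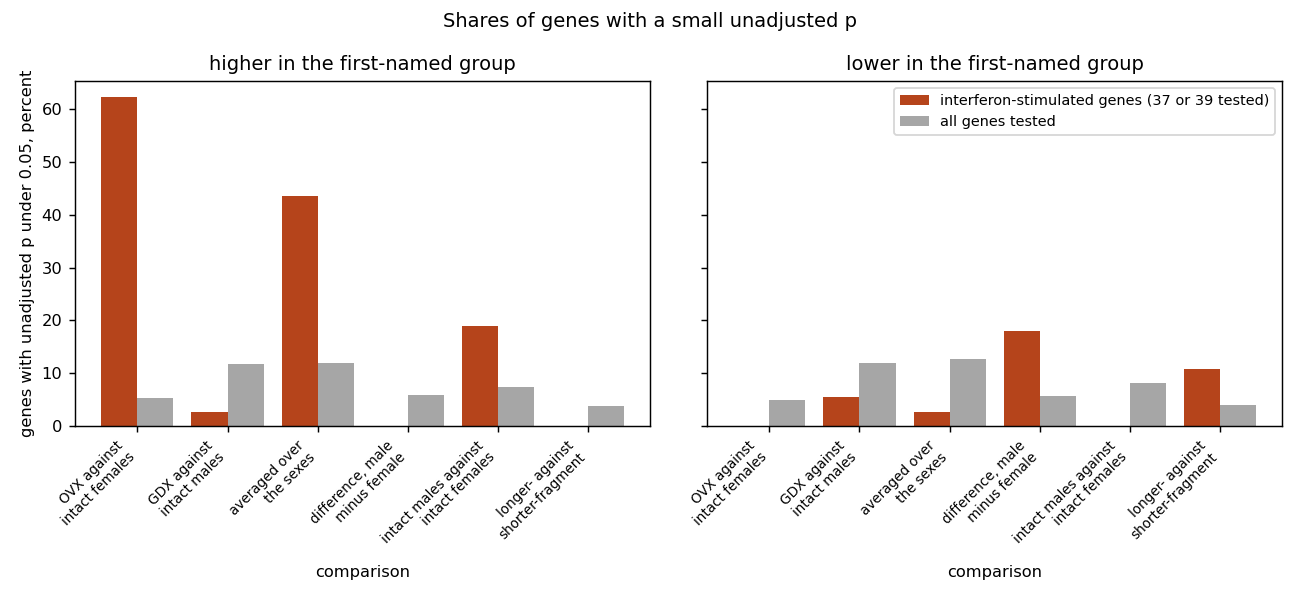
Share of members, 37 or 39 tested, and of all genes tested with an unadjusted p under 0.05, higher on the left and lower on the right, in each of 6 comparisons. The bar for members after OVX reaches 62.2% against 5.25% of all genes, and the one after GDX stands at 2.70% against 11.8%.

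In intact rats, males had higher values than females for several of the same genes. Of 37 members tested 1 was called higher in males, Adar, and 0 lower, while 1.45% of 14937 genes were called higher. Adar, at 115 to 127 CPM in intact males and 106 to 112 CPM in intact females, did not overlap between the sexes, as was so for 1.19% of all genes in this direction, and its log2 fold change was 0.16 (SE 0.04, adjusted p = 0.0313). It stayed called in all 11 fits that left out a rat. At an unadjusted p under 0.05, 7 members were higher in males, against 7.3% of all genes, and 0 lower, against 8.21%. These were Adar, Mx1 (1.01, SE 0.39), Dhx58 (0.51, SE 0.17), Mx2 (0.43, SE 0.18), Ddx58 (0.42, SE 0.15), Ifi27 (0.27, SE 0.12) and Cmpk2 (0.22, SE 0.10). Without intact male 5 there were 2 and without intact female 5 there were 4, while without intact male 1 or intact female 3 there were 11. A second member was called without intact female 1 and 3 in all were called without intact male 1. This comparison uses the same intact rats as those of GDX and OVX, so their values are not independent of each other.

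Zbp1, Oasl and Ifi44l were too low for a test within a sex. Zbp1, a sensor of Z-form nucleic acid that triggers cell death, had 2 to 18 reads per library, Oasl 1 to 15 and Ifi44l 0 to 12. Oasl had 0.0668 to 0.685 CPM in intact females (median 0.248) and 0.241 to 0.972 CPM in OVX females (median 0.647), and without the filter its log2 fold change was 1.05 (SE 0.47, unadjusted p = 0.0372, adjusted p = 0.556). The values for Zbp1 (0.58, SE 0.36) and Ifi44l (0.37, SE 0.51) after OVX did not pass an unadjusted p of 0.05 (0.124 and 0.48).

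The interferons themselves were at the limit of detection. Of 11 listed interferon genes 10 were in the table and 0 passed the filter. Ifng, Ifna2, Ifnl1 and Ifnl3 had no read in any of the 22 libraries, where a count of 0 allows up to 0.242 CPM in the smallest library, and the others had at most 6 reads. Together they reached at most 0.815 CPM in a library. The receptors and kinases were all measured, and 1 of 9 was called higher after GDX (6.78% of all genes were), the kinase Jak2 of the interferon gamma receptor. Jak2 had 28.0 to 31.6 CPM in intact males (mean 29.3 ± 1.51 SD, n = 5) and 32.4 to 38.5 CPM in GDX males (mean 34.6 ± 2.51 SD, n = 5), so the groups did not overlap, as was so for 3.54% of all genes in this direction, and it rose by 0.24 on the log2 scale (SE 0.06, adjusted p = 0.0273). After OVX 0 of 9 were called. At an unadjusted p under 0.05, 3 were higher (5.25% of all genes were) and 2 lower (4.92% were). The smallest p-values belonged to Ifnlr1 (0.40, SE 0.15), Ifngr1 (-0.13, SE 0.05) and Jak2 (0.12, SE 0.05). Averaged over the sexes 3 were called, Jak2 (0.17, SE 0.04), the interleukin-10 and lambda interferon receptor chain Il10rb (0.28, SE 0.10) and Ifnar1 (0.10, SE 0.03), all higher, where 7.56% of all genes were. In intact rats the kinase Tyk2 was called higher in males (0.31, SE 0.07, adjusted p = 0.0321), where 1.45% of all genes were.

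Of 14 tested genes that sense nucleic acid or lipopolysaccharide and relay the signal, 1 was called higher after GDX, Tlr4 (0.52, SE 0.17, adjusted p = 0.0815), the lipopolysaccharide receptor, and 1 lower, the adaptor Traf3 (-0.26, SE 0.05, adjusted p = 0.0105). Of all genes tested, 6.78% were called higher and 6.58% lower, so these counts were near the shares of all genes. After OVX 0 of 15 were called and 1 was lower at an unadjusted p under 0.05 (4.92% of all genes were), the kinase Ikbke (-0.25, SE 0.10). It was followed by Irf5 (0.19, SE 0.10) and Tlr7 (-0.21, SE 0.12). Averaged over the sexes Tlr4 (0.31, SE 0.11) was called higher and Traf3 (-0.16, SE 0.03) and Ikbke (-0.24, SE 0.07) lower, where 7.56% and 8.41% of all genes were. Among 9 tested genes listed as limiting interferon signalling or the sensing before it, 0 were called in either sex. At an unadjusted p under 0.05, 1 was higher after GDX (11.8% of all genes were) and 2 were lower after OVX (4.92% were). The smallest p-values belonged to Socs3 (0.75, SE 0.29), Trex1 (-0.11, SE 0.14) and Pias1 (0.05, SE 0.07) in males and to Pias1 (-0.14, SE 0.05), Trex1 (-0.29, SE 0.12) and Ptpn2 (0.16, SE 0.09) in females.

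A wider list held 60 further interferon-induced genes, of which 54 were in the table. After OVX 0 of 44 tested were called, 19 were higher and 0 lower at an unadjusted p under 0.05 (5.25% and 4.92% of all genes were), and the median was 0.22. Those with the smallest p were Parp10 (0.45, SE 0.11), Trim34 (0.41, SE 0.10) and the class I light chain B2m (0.22, SE 0.06). Parp10 had 4.14 to 4.91 CPM in intact females (median 4.35) and 4.97 to 6.96 CPM in OVX females (median 5.95), without overlap. After GDX 5 of 45 were called higher, where 6.78% of all genes were, namely Slfn5 (0.81, SE 0.15), B2m (0.26, SE 0.06), the scramblase Plscr1 (0.80, SE 0.22), Gbp5 (0.51, SE 0.16) and the proteasome activator subunit Psme1 (0.23, SE 0.08). The GPI-anchored protein Ly6e (-0.40, SE 0.10) was the 1 called lower, where 6.58% of all genes were. At an unadjusted p under 0.05, 10 were higher (11.8% of all genes were) and 2 lower (12% were), with a median of 0.16. Averaged over the sexes 13 of 49 were called higher, where 7.56% of all genes were, namely Slfn5, B2m, Parp10, Psme1, Pml, Xaf1, Gbp5, Ube2l6, Nmi, Parp12, Trim34, Plscr1 and Gbp6, from 0.19 (Psme1) to 0.59 (Slfn5), and Ly6e was called lower (-0.21, SE 0.07). In intact rats Trim34 (0.36, SE 0.09) and the ISG15-activating enzyme Uba7 (0.54, SE 0.16) were called higher and Slfn5 (-0.44, SE 0.12) lower in males, where 1.45% and 2.56% of all genes were. The list was drawn up with results of these data known.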

How the data were processed

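The deposited table holds raw read counts per gene, which the authors made from stranded total RNA libraries (SMARTer Pico kit). The study's methods name trimming, alignment with Hisat2 and counting with featureCounts, while the submitters' processing notes name TopHat2 2.0.13 and Subread, and how multi-mapped reads were treated is not given in the sources used here. The library classes come from fragment sizes in the study's methods.

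Counts were analysed in R 4.3.3 with edgeR 4.0.16 (TMM scaling, filterByExpr with a minimum count of 10 and a minimum total of 15, quasi-likelihood test, Benjamini-Hochberg adjustment over all genes tested, adjusted p under 0.1). The male, female, intact-sex and class comparisons used only the rats concerned, and the difference and the average used all 22. DESeq2 1.42.0, a likelihood ratio test, no filter, the library class as a term, shorter-fragment libraries alone, the replicate number as a block and leaving out each rat were the alternatives. Nothing in the labels says more of replicates than that each is a separate rat. No 2 libraries held identical counts. Members are given with fold changes where the unadjusted p was under 0.05, Bst2 and Mx2 always, and pathway genes where called or, with none called, the 3 with the smallest p. Fold changes of other members, and which members and genes have levels printed, were chosen after their values were seen. The members and lists were chosen with earlier results of these data known. The fits were run on simulated data in which genes varied independently and libraries had no class. Those data hold no shifts that members share within a rat, so they do not test the results against them. Floors cover counting error only.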

Additional observations from a re-analysis of the deposited data

Results flagged for a closer look

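Of 156 groups of member values searched, 11 held a rat whose gap to its nearest neighbour was over Dixon's 95% critical value, and chance alone would give about 1 in 20. Intact male 5 was far above the other intact males for Eif2ak2 (37.6 CPM, others 27.4 to 29.7), Irgm (6.13 CPM, others 3.02 to 3.85), Igtp (12.1 CPM, others 6.95 to 7.55) and Ifi27 (59.6 CPM, others 41.1 to 46.2). GDX male 5 stood above its group for Dtx3l (10.3 CPM, others 6.41 to 7.43) and for Ifi44 (10.8 CPM, others 5.91 to 6.95). GDX male 1 stood above its group for Adar (115 CPM, others 99.4 to 103). In females, OVX rat 4 was high for Irf1 (6.47 CPM, others 3.83 to 4.64) and intact rat 6 for Psmb8 (4.24 CPM, others 1.6 to 1.99). Intact female 5 was low for Igtp (4.88 CPM, others 7.2 to 8.54) and OVX rat 5 for Ifi35 (2.08 CPM, others 2.91 to 3.36).

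The response of Adar differed between the sexes by the test of the difference itself, with a male minus female log2 fold change of -0.28 (edgeR's quasi-likelihood test, adjusted p = 0.0973). The call was lost in 13 of 22 fits that left out a rat, with the library class as a term (adjusted p = 0.115) and in shorter-fragment libraries alone (adjusted p = 0.393).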

How the results depend on the processing

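Counts are of members called unless named otherwise, with calls over all genes after them. After OVX, where 1 member and 5 genes were called, there were 2 and 11 without the filter, 7 and 174 with DESeq2, 5 and 100 with the likelihood ratio test, 0 and 3 with the class as a term, and 0 members among shorter-fragment libraries; members higher at an unadjusted p under 0.05 numbered 10 with the class and 12 in shorter-fragment libraries. After GDX (1995 genes called) such members numbered 2 without the filter, 3 with DESeq2, 2 with the likelihood ratio test and 0 in both class settings, with 796 genes called with the class and 440 in shorter-fragment libraries. For the difference between the sexes (1 and 18) there were 33 genes without the filter, 3 and 243 with DESeq2, 2 and 184 with the likelihood ratio test, 0 and 6 with the class and 0 and 5 in shorter-fragment libraries. Averaged (2486 genes called) there were 0 and 662 with the class and 0 and 296 in shorter-fragment libraries, with 2 members higher at an unadjusted p under 0.05 in each. Between intact sexes (599 genes called) shorter-fragment libraries gave 34 genes and a median of 0.43. Between library classes (0 and 1) there were 2 and 210 without the filter, 58 genes with DESeq2 and 53 with the likelihood ratio test. The log2 fold change of Mx2 in males turned to -0.23 with the class and in shorter-fragment libraries and to -0.06 with the replicate block, and that of Irf7 in the average to -0.01 and -0.02 in the class settings. With 250 bases before the start alone, the shares of all promoters with the 2 motifs were 3.29% and 7.52%, and those of the members 56.2% and 34.4%. The cause of these shifts was not tested.

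Leaving out each rat in turn gave these ranges of members called, genes called, member median and members higher at an unadjusted p under 0.05. They were 0 to 6, 0 to 113, 0.30 to 0.39 and 17 to 25 after OVX, and 1 to 5, 1202 to 2446, 0.01 to 0.24 and 0 to 10 after GDX. They were 0 to 1, 1 to 275, -0.33 to -0.16 and 0 to 1 for the difference (members lower at that p 3 to 10), and 6 to 15, 1912 to 2761, 0.24 to 0.35 and 8 to 26 for the average. Between intact sexes they were 1 to 3, 352 to 777, 0.05 to 0.23 and 2 to 11, and between library classes 0 to 0, 0 to 2, -0.29 to -0.07 and 0 to 0. In males Bst2 ran from -0.13 to 0.06 and Mx2 from -0.13 to 0.23, and between classes Bst2 from -0.11 to 0.09 and Mx2 from -0.21 to 0.06.

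Rats with the same number did not deviate from their groups together, since none of 10 pair correlations of their deviations was over 0.1 (-0.077 to 0.031). Such correlations cannot show whether these rats shared a cage, a cohort or a day of surgery. With the replicate number as a block, 0 members and 0 genes were called after OVX (Bst2 0.82, adjusted p = 0.199) and for the difference (Adar -0.26, adjusted p = 0.281), 2 members were higher at an unadjusted p under 0.05 and 1274 genes called after GDX, and 0 members and 255 genes were called between intact sexes, with 4 members higher at an unadjusted p under 0.05.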
